A study of Homo sapiens with 4 samples.

Results

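The collagen and laminin genes are the structural genes of the extracellular matrix and of the basement membrane, the thin sheet on which epithelial cells rest. They were taken as the protein-coding genes whose symbols name a numbered chain of a collagen (COL, A) or of a laminin (LAMA, LAMB, LAMC). The annotation holds 56 such genes, of which 44 are collagens and 12 are laminins. All 4 expression tables listed 43 of them, among 24039 genes shared by the tables. Of the 43, 31 reached 1 CPM (a read count scaled to a total of 1000000 per library) in at least one library and are described here. These were 22 collagens and 9 laminins, and 25 of the 31 were at 1 CPM or more in every library. COL4A1 and LAMC1, the marker genes of the group, were among those 25.

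The libraries were made from UM-UC-3, a human bladder cancer cell line, and each condition had 1 library. Cells received 75 nM of siRNA for 48 h, either a control siRNA or a pair of siRNAs against hnRNPK, PTBP1 or lncRNA-LBCS. hnRNPK and PTBP1 are proteins that bind RNA, and LBCS is a long noncoding RNA. The 4 libraries came from the same line with the same transfection reagent, so they differ by label only in the siRNA. No condition had a replicate, so no difference below has a replicate check and no p-value is given. The 95% intervals are exact binomial (Clopper-Pearson) intervals on reads and cover counting error only.

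A collagen molecule is a triple helix of 3 chains. Fibril-forming collagens build cables, collagen IV builds the net of the basement membrane, and FACIT collagens sit on the surface of fibrils. Transmembrane collagens stay anchored in the cell surface. A laminin is a cross-shaped trimer of 1 alpha, 1 beta and 1 gamma chain, in which the alpha chain carries the main contacts with cell receptors. In the urothelium, the epithelium of the bladder, a basement membrane of collagen IV and laminins separates the epithelial cells from the stroma.

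The libraries held 54301152 to 70232674 reads on listed genes, and a gene with 3 reads, the floor used here, was at 0.0427 to 0.0552 CPM. HNRNPK measured 783 CPM with the control siRNA and 188 CPM with si-hnRNPK. PTBP1 itself measured 280.0 CPM with the control siRNA and 89.7 CPM with si-PTBP1. The only gene matched by both siRNAs of the si-lncRNA-LBCS library was AL022068.1, which had 110 reads in the control library (1.79 CPM) and 103 in that library (1.47 CPM). It had 186 reads with si-hnRNPK (3.43 CPM) and 214 with si-PTBP1 (3.82 CPM), so the si-lncRNA-LBCS library was the lowest, close to control. The si-lncRNA-LBCS library is therefore named by its label, as the LBCS-labelled library. Of 6 epithelial markers, 3 were at 1 CPM or more in every library, among them KRT8 and KRT18, while CDH1 was not listed. Of 8 urothelial markers, 0 or 1 reached 1 CPM in a library. The 1 was TP63, at 0.342, 2.50, 2.37 and 0.513 CPM in control, si-hnRNPK, si-PTBP1 and the si-lncRNA-LBCS library, and UPK3A was not listed. The 5 endothelial and 6 white blood cell markers were all below 1 CPM. The median gene of a library moved against the control by -0.11 in si-hnRNPK, 0.13 in si-PTBP1 and -0.01 in the LBCS-labelled library on the log2 scale (median-of-ratios scaling). In RNA from a whole culture, fewer cells of a type and less RNA per cell cannot be told apart.

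The siRNAs are shown because each condition is defined by them, and because the bases that pair with a guide's seed can also occur in the mRNAs of the genes described. The sense strands as the labels give them are written 5′ to 3′, with in capitals the 7 bases that are the complement of the guide's seed (guide bases 2 to 8).
control: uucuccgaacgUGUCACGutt
si-hnRNPK, first: ggguuguagagUGCAUAAatt
si-hnRNPK, second: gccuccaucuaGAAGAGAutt
si-PTBP1, first: gccucaacgucAAGUACAatt
si-PTBP1, second: cccucauugacCUGCACAatt
si-lncRNA-LBCS, first: gcugcucauuuGUCUGAUctt
si-lncRNA-LBCS, second: ggugguagucaACACAAAutt
The capitals of the first si-hnRNPK strand occurred in the longest annotated 3′ UTR of COL12A1, 1 of the 29 genes tested in that comparison (3.45%). The share was 11.1% over the 11703 tested genes with an annotated 3′ UTR, and the shares after "against" below are over such genes. The capitals of the second si-hnRNPK strand occurred in COL11A2 and COL4A2 (6.90% against 19.7%). For si-PTBP1 the first matched 4 of 31 genes, COL4A1, COL6A6, LAMB1 and LAMB3 (12.9% against 13.1%). The second matched 3, among them COL4A6 and COL6A1 (9.68% against 15.1%). The first siRNA of the LBCS-labelled library matched COL11A2, COL12A1, COL17A1 and COL4A2 (13.8% of 29 against 9.40%), and the second matched COL4A2, LAMA3 and LAMC1 (10.3% against 18.2%). Of the genes described, the control siRNA matched COL6A3 only, and no share over all genes is given for it. A match is a description of letters, and its part in any difference below was not tested.

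The sequences before 4 gene starts are shown for the genes the results turn on: the collagen IV pair COL4A1 and COL4A2, COL4A5, LAMC1 and COL17A1. They are RefSeq sequences on GRCh38, 5′ to 3′ on the strand named, and run up to the RefSeq transcript start. Capitals mark short promoter motifs, each searched for on both strands. The GC box was searched for as GGGCGG. The box named after its letters was searched for as CCAAT, and the TATA box as TATAAA. The CT element was searched for as CCCTCCCC. The CT element is the kind of C-rich stretch that hnRNPK is known to bind, and it occurred both in genes that were higher and in genes that were lower with si-hnRNPK.
COL4A1-COL4A2, chr13:110307158-110307283, plus strand: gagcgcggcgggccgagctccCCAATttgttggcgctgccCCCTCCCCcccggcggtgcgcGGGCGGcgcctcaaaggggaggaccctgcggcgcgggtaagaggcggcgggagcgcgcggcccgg
COL4A5, chrX:108439588-108439837, plus strand: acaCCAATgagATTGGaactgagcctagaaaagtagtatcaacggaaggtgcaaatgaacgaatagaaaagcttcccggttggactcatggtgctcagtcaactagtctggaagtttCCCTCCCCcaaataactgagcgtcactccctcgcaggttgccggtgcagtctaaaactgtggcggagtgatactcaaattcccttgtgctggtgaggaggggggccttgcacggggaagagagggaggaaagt
LAMC1, chr1:183023170-183023419, plus strand: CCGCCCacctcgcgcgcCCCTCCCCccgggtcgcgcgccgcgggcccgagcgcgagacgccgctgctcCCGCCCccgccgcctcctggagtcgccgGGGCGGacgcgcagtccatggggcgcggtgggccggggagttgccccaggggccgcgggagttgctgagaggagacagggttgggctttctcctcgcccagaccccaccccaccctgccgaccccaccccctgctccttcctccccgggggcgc
COL17A1, chr10:104085881-104086130, minus strand: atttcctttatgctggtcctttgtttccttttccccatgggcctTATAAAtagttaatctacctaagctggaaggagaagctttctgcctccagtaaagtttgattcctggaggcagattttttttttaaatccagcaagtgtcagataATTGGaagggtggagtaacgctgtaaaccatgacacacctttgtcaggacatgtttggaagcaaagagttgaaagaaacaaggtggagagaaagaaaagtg
COL4A1 and COL4A2 are transcribed away from each other, and the 126 bases shown lie between their starts. They hold 1 GC box, 1 CCAAT box and 1 CT element, and annotated exons of both genes overlap them. The 250 bases before COL4A5 hold 2 CCAAT boxes and 1 CT element. Those before LAMC1 hold 3 GC boxes and 1 CT element. Those before COL17A1 hold 1 TATA box and 1 CCAAT box, and an annotated COL17A1 exon overlaps them. Over 34943 promoters of 250 bases, 42.5% held a GC box, 32.0% a CCAAT box, 10.8% a TATA box and 12.7% a CT element. Of the 31 genes, 26 matched a promoter, and of these 20 held a GC box, 9 a CCAAT box, 7 a TATA box and 8 a CT element. The 8 were COL4A1, COL4A2, COL4A5, COL18A1 and LAMC1, and also COL7A1, COL13A1 and LAMA5, which fell with si-hnRNPK. COL4A1 and COL4A2 share the CT element between their starts, which is counted for each. A gene was counted if any of its promoters held the motif, and a gene had up to 4 promoters. The shares over all promoters are of single promoters, so the gene counts are favoured beside them. In windows of 126 bases the shares over all promoters were 34.5%, 21.1%, 5.88% and 8.27% in the same order.

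To set the genes side by side, levels were divided by the length of a gene's exons (CPM per kb). That length joins the annotated exons of all transcripts of a gene and can be longer than the mRNA made. The order of genes and the ratios between genes are therefore approximate beyond their counting intervals. In the control library LAMC1, the gamma chain of most laminins, was highest at 26.1 CPM per kb. LAMB2 followed at 15.3 and LAMB1 at 8.41 CPM per kb, and the counting intervals of these 3 did not overlap. LAMC1 was first and LAMB2 second in all 4 libraries. COL6A2 at 6.79, LAMB3 at 6.76 and COL17A1 at 6.36 CPM per kb came next, and their intervals overlapped. COL6A2 is a chain of the beaded filaments of collagen VI, LAMB3 the beta chain of the epithelial laminin-332, and COL17A1 a collagen of the hemidesmosome. COL13A1, LAMA5, COL18A1, COL23A1, COL4A2 and COL6A1 lay between 3.95 and 2.80 CPM per kb, and neighbours in this order had overlapping intervals. COL4A1 was at 1.61, LAMA1 at 1.48 and COL5A1 at 1.33 CPM per kb, again with overlapping intervals between neighbours. COL1A1, a chain of the main collagen of bone and skin, was at 0.041 and COL5A3 at 0.043 CPM per kb, the lowest values, with overlapping intervals.

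**Figure D1:**
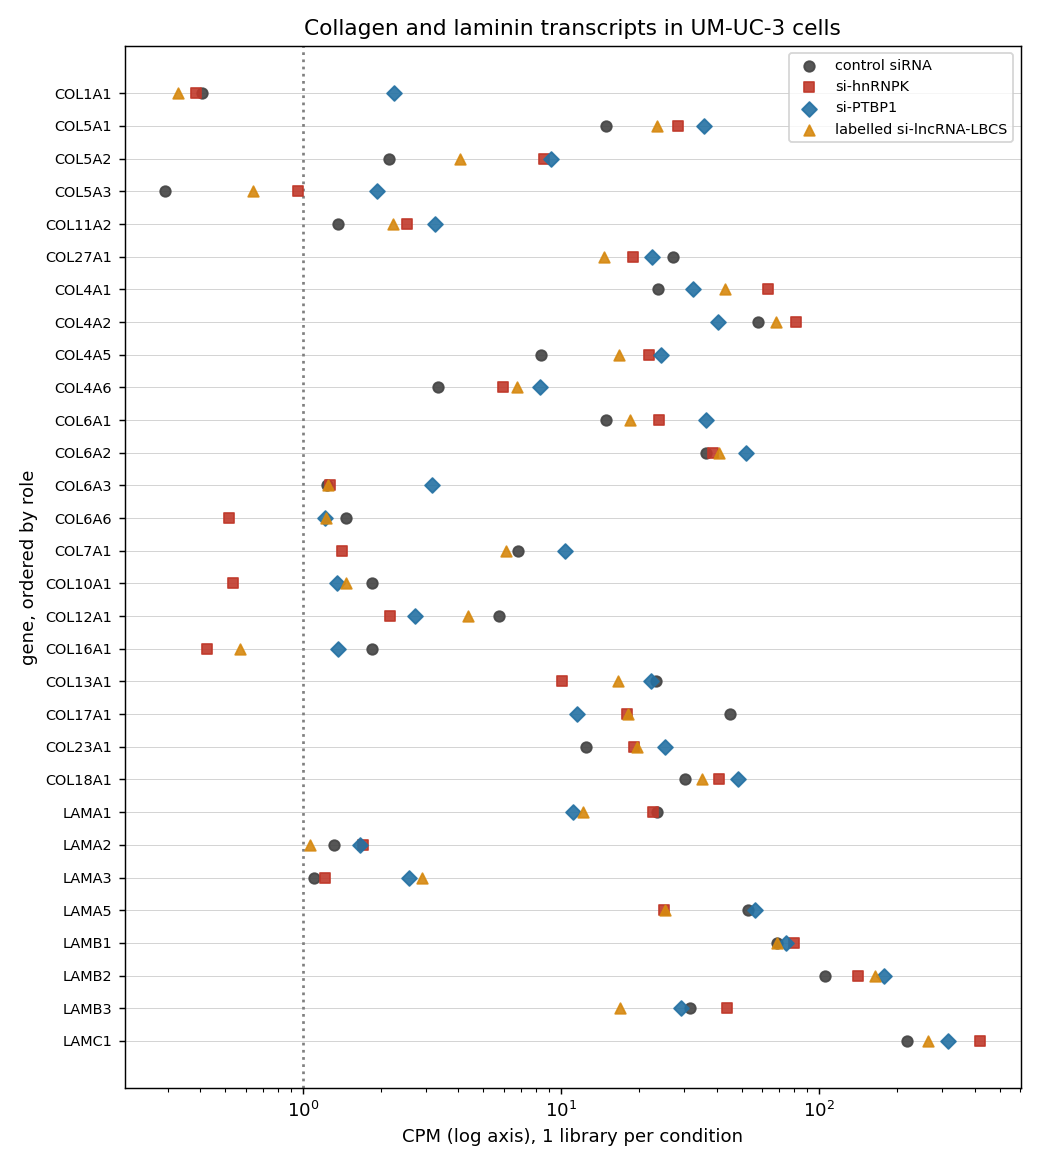
Level of the collagen and laminin genes named in the text in each of the 4 libraries, in CPM on a log axis and not divided by gene length, with 1 point per library, genes ordered by role and a dotted line at 1 CPM. LAMC1 lies between 219 and 419 CPM, and the control point of COL17A1 (44.9 CPM) stands to the right of its points in the other libraries (11.5 to 18.2 CPM).

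The other annotated genes were not described further. Of these, 12 were listed in all 4 tables but stayed under 1 CPM: COL4A3, COL4A4, COL8A1, COL8A2, COL9A3, COL11A1, COL14A1, COL19A1, COL22A1, COL24A1, COL26A1 and LAMA4. COL9A3 was closest to the limit from below, at 0.981 CPM in the si-PTBP1 library. Of the genes named here, COL6A6 was closest from above, with 1.47 CPM in its highest library. Another 6 genes (COL2A1, COL3A1, COL9A2, COL15A1, COL20A1 and COL21A1) were listed in some tables only. The last 7 (COL1A2, COL6A5, COL9A1, COL25A1, COL28A1, LAMB4 and LAMC3) were listed in none of the tables.

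The first comparison was each of the other libraries against the control siRNA, as the difference of log2(CPM + 1), over genes at 1 CPM or more in either library. This scale understates the change of genes with few reads. A gene is said to have risen or fallen where the difference was at least 1. In the si-hnRNPK library 3 of 29 collagen and laminin genes rose (10.3%), COL4A1, COL4A5 and COL5A2, where 3.55% of all 13672 genes rose. There 6 fell (20.7%), COL7A1, COL12A1, COL13A1, COL16A1, COL17A1 and LAMA5, where 3.93% of all genes fell. Scaled by the median of ratios, the split was 5 up and 4 down, against 4.46% and 2.74% of all genes. On that scaling COL5A1 (1.00) and LAMC1 (1.04) reached the threshold, and COL16A1 (-0.97) and LAMA5 (-0.95) fell short of it.

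In the si-PTBP1 library 7 of 31 genes rose (22.6%), where 2.92% of 13855 genes rose. They were COL1A1, COL4A5, COL4A6, COL5A1, COL5A2, COL5A3 and COL6A1, all of them collagens. COL1A1 and COL5A3 entered the comparison only through their level in the si-PTBP1 library. With genes kept by a mean of 1 CPM over the 4 libraries, an alternative chosen after seeing the data, 5 of 28 rose and 2 fell, where 2.89% and 0.626% of all genes did. That filter left 3 up and 6 down of 28 for si-hnRNPK (3.46% and 4.01% of all genes). COL17A1 and LAMA1 fell, 2 of 31 (6.45%), where 0.613% of all genes fell. With median-of-ratios scaling COL4A6 was at 0.98, leaving 6 up and 2 down against 1.85% and 0.953% of all genes. In the LBCS-labelled library 0 of 29 genes rose, where 0.378% of 13492 genes rose. COL17A1 and LAMA5 fell (6.90%), where 1.01% of all genes fell. Median-of-ratios scaling left 0 up and 2 down there, against 0.4% and 0.986% of all genes. The filter on the mean left 0 up and 2 down of 28 (0.377% and 1% of all genes).

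The median difference over the genes tested was 0.21 for si-hnRNPK, where the median of all genes was -0.11. For si-PTBP1 the corresponding medians were 0.50 and 0.12, and for the LBCS-labelled library 0.01 and -0.01. All comparisons use the same control library, so an unusual control value moves them together. Measured against the geometric mean of the 3 other libraries in place of control, si-hnRNPK had 0 genes up and 1 down, where 2.24% and 2.53% of all genes passed in these directions. On that reference si-PTBP1 had 2 up and 1 down (1.65% and 0.523% of all genes), and the LBCS-labelled library had 0 up and 0 down (0.0424% and 0.735%). The genes past the threshold on that reference were COL7A1 for si-hnRNPK (-1.83), and COL1A1 (1.24), COL7A1 (1.15) and COL17A1 (-1.03) for si-PTBP1, so that the other calls against control were not kept. That reference includes the other siRNA libraries, so a change shared by several siRNAs shrinks on it as well. A value under the threshold there, here and below, cannot tell an unusual control value from such a shared change.

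With a pseudocount of 0.1, which weights genes with few reads more, si-hnRNPK had 3 genes up and 8 down (5.78% and 7.28% of all genes). On this scale si-PTBP1 had 11 up and 4 down (5.72% and 1.25%), and the LBCS-labelled library 1 up and 3 down (1.22% and 2.62%). At a threshold of 1.5-fold, 7 genes were up and 8 down for si-hnRNPK, against 9.89% and 15.8% of all genes. The counts at 1.5-fold were 13 and 4 for si-PTBP1, against 12.1% and 3.12% of all genes, and 8 and 6 for the LBCS-labelled library, against 4.14% and 5.74%.

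**Figure D2:**
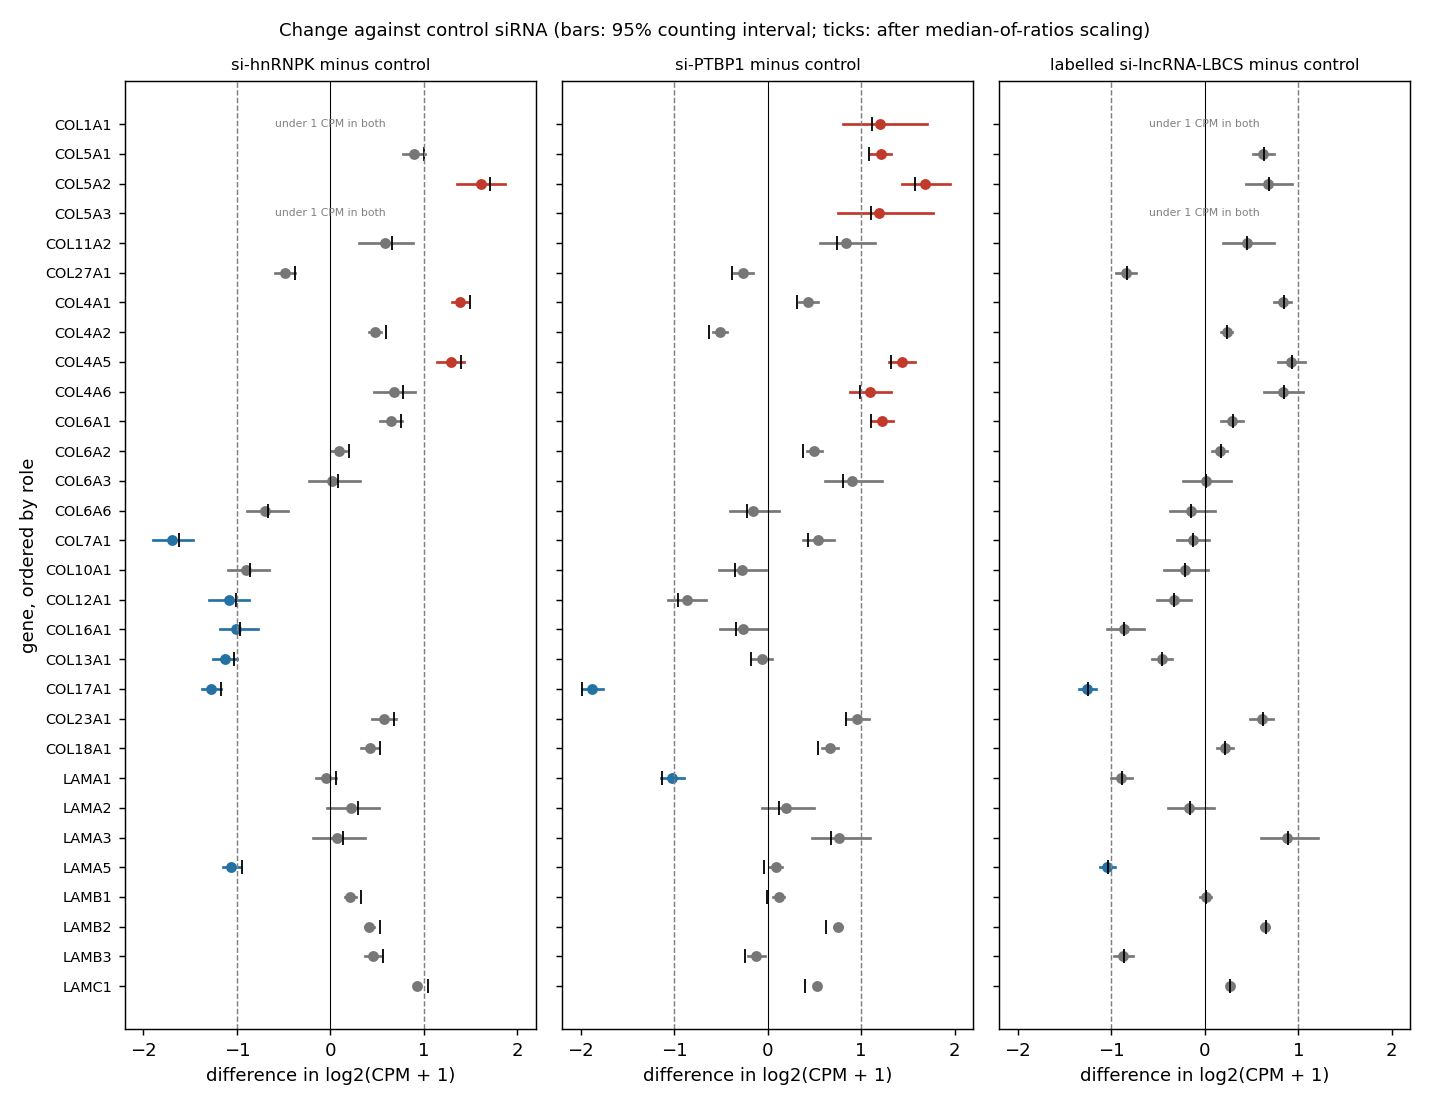
Difference of log2(CPM + 1) against the control siRNA for the genes named in the text, with 1 panel per library compared, genes ordered by role, bars for the 95% counting interval, ticks for the value after median-of-ratios scaling and dashed lines at -1 and 1. Red points rose and blue points fell. COL17A1 lies below -1 in all panels (-1.28, -1.87 and -1.26), and COL4A5 and COL5A2 lie above 1 for si-hnRNPK and si-PTBP1.

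All 4 collagen IV chains described were higher in the si-hnRNPK library than in control, where 41.6% of all genes were higher, and 2 of them rose. All 4 were also higher in the LBCS-labelled library, where 48.2% of all genes were, and 0 of them rose there. COL4A1 (ENSG00000187498, chr13:110148963-110307233 on GRCh38) was at 23.7 CPM in the control, 63.5 in the si-hnRNPK, 32.4 in the si-PTBP1 and 43.0 in the LBCS-labelled library. It rose with si-hnRNPK, by 1.39 on the log2(CPM + 1) scale or 2.68 times (2.52 to 2.85). The difference was 0.96, under the threshold, against the geometric mean of the 3 other libraries. The ratio to control was 1.37 (1.28 to 1.47) for si-PTBP1 and 1.82 (1.70 to 1.93) for the LBCS-labelled library, under the threshold in both. COL4A2, its partner in the common collagen IV trimer, was at 58.0, 81.2, 40.6 and 68.3 CPM in the same order of libraries. Its ratio to control was 1.40 (1.34 to 1.47) for si-hnRNPK but 0.700 (0.664 to 0.738) for si-PTBP1, on opposite sides of 1.

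COL4A5 and COL4A6, chains of a collagen IV found in specialised basement membranes, are a second pair of neighbouring genes, on the X chromosome. COL4A5 was at 8.36 CPM in control and at 21.8, 24.3 and 16.8 CPM in the si-hnRNPK, si-PTBP1 and LBCS-labelled libraries. It rose 2.61 times (2.35 to 2.90) with si-hnRNPK and 2.91 times (2.63 to 3.23) with si-PTBP1. Control is its only low library. With the mean of the 3 others as reference (geometric) these differences were 0.50 and 0.70, under the threshold. In the LBCS-labelled library it was 2.01 times the control level (1.81 to 2.23), a difference of 0.93 that did not reach the threshold. COL4A6 was at 3.34 CPM in control and at 5.95, 8.28 and 6.76 CPM in the other libraries in the same order. In the si-PTBP1 library it was 2.48 times control (2.10 to 2.93), a difference of 1.10 as deposited and 0.98 after scaling. Summed over the 4 chains described, collagen IV was at 93.3 CPM in control, 172 in si-hnRNPK, 106 in si-PTBP1 and 135 in the LBCS-labelled library.

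Among the fibril-forming collagens, COL5A1 and COL5A2 rose in the si-PTBP1 library. They encode chains of collagen V, which regulates the width of fibrils. COL5A2 was at 2.15 CPM in control, 8.60 in si-hnRNPK, 9.15 in si-PTBP1 and 4.04 in the LBCS-labelled library. It rose 3.998 times (3.29 to 4.89) with si-hnRNPK and 4.25 times (3.51 to 5.19) with si-PTBP1, intervals that overlap. Against the geometric mean of the 3 other libraries these differences were 0.82 and 0.93, under the threshold. COL5A1 was at 14.9, 28.5, 35.7 and 23.5 CPM in the same order. It rose 2.40 times (2.22 to 2.60) with si-PTBP1, while the ratio for si-hnRNPK was 1.92 (1.77 to 2.08), a difference of 0.89, or 1.00 after scaling. COL5A3 was at 0.293, 0.958, 1.94 and 0.641 CPM, so that it was tested for si-PTBP1 alone, where it was 6.63 times the control level (4.003 to 11.6).

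COL1A1 was at 0.407 CPM in control, 0.387 in si-hnRNPK, 2.25 in si-PTBP1 and 0.327 in the LBCS-labelled library. It passed 1 CPM in the si-PTBP1 library alone and there was 5.52 times the control level (3.57 to 8.85). COL27A1, a fibrillar collagen known from cartilage, was at 27.1, 19.04, 22.5 and 14.7 CPM, lower than control in each of the other libraries, with no difference beyond -0.84. COL11A2 differed by 0.45 to 0.84, below the threshold. Of the fibroblast markers, 1 of 3 tested rose in the si-PTBP1 library and 1 of 2 in the si-hnRNPK library. The shares of all genes that rose were 2.92% and 3.55%. In both it was POSTN, which encodes the matrix protein periostin, at 0.424, 2.19, 5.83 and 1.57 CPM in the 4 libraries. POSTN was under 1 CPM in control, so it entered both comparisons only through the siRNA library compared. PDGFRB entered the si-PTBP1 comparison in the same way. The counts therefore rest in part on genes picked by a high level in that library. The difference of POSTN was 2.26 for si-PTBP1 and 1.16 for si-hnRNPK. Against the geometric mean of the 3 other libraries these were 1.59 and 0.13, the latter under the threshold. PDGFRA (0.68) and PDGFRB (0.83) did not pass the threshold in the si-PTBP1 library. The 6 genes of the list summed to 4.19 CPM in control, 7.29 in si-hnRNPK, 13.3 in si-PTBP1 and 5.01 in the LBCS-labelled library. Of the 6, 1, 2, 3 and 2 were at 1 CPM or more in these libraries, DCN was listed in none, and LUM and FAP stayed below 1 CPM. Their part in the fibrillar collagen values was not tested.

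Collagen VI forms beaded filaments close to cells. COL6A1 was at 14.96 CPM in control, 24.0 in si-hnRNPK, 36.4 in si-PTBP1 and 18.6 in the LBCS-labelled library, and it rose 2.43 times (2.25 to 2.63) with si-PTBP1. COL6A2, its partner chain, was at 36.5, 38.9, 52.1 and 41.0 CPM, with differences of 0.09, 0.50 and 0.16. COL6A3 and COL6A6 did not pass the threshold in any comparison. COL7A1 builds the anchoring fibrils that tie the basement membrane to the stroma. It was at 6.79 CPM in control and 1.42 CPM in si-hnRNPK, 0.209 times the control level (0.161 to 0.267), the lowest ratio among the genes described. In the si-PTBP1 library it was at 10.4 CPM, a ratio of 1.53 (1.34 to 1.73) that was under the threshold, and in the LBCS-labelled library at 6.12 CPM.

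The FACIT collagens COL12A1 and COL16A1, which decorate fibrils, fell with si-hnRNPK. COL12A1 was at 5.75, 2.17, 2.71 and 4.36 CPM in control, si-hnRNPK, si-PTBP1 and the LBCS-labelled library. Its ratio to control in the si-hnRNPK library was 0.378 (0.304 to 0.467). COL16A1 was at 1.86, 0.424, 1.37 and 0.570 CPM, and its ratio in the si-hnRNPK library was 0.228 (0.139 to 0.359). Its difference of -1.01 was at the threshold and became -0.97 after scaling. COL10A1, a short-chain collagen of growth plate cartilage, differed by -0.90 for si-hnRNPK and did not pass it.

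Of the transmembrane collagens, COL17A1 and COL13A1 fell and COL23A1 did not. COL17A1 (ENSG00000065618), which joins the hemidesmosome to the basement membrane, was at 44.9 CPM in control, 17.97 in si-hnRNPK, 11.5 in si-PTBP1 and 18.2 in the LBCS-labelled library. Its ratio to control was 0.400 (0.372 to 0.431), 0.257 (0.235 to 0.280) and 0.405 (0.379 to 0.433), so it passed the threshold in all comparisons. The control library is the only high one, and the comparisons share it. Against the geometric mean of the 3 other libraries, COL17A1 differed by -0.23 for si-hnRNPK, -1.03 for si-PTBP1 and -0.21 for the LBCS-labelled library. COL13A1, a collagen of cell adhesion sites, was at 23.3, 10.1, 22.3 and 16.6 CPM and fell with si-hnRNPK alone, to 0.434 times control (0.393 to 0.479). COL23A1 was at 12.5, 19.1, 25.3 and 19.6 CPM, with differences of 0.57, 0.96 and 0.61.

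COL18A1, a basement membrane collagen that is the source of endostatin, was at 30.2 CPM in control, 40.8 in si-hnRNPK, 48.5 in si-PTBP1 and 35.2 in the LBCS-labelled library. Its differences were 0.42, 0.66 and 0.21. It shares 1401 exon bases, 16.4% of its exon length, with SLC19A1 on the other strand, and whether reads were counted by strand is not given in the sources used here. SLC19A1 was at 44.0 to 63.5 CPM, and reads of the shared bases cannot be told apart.

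Of the 4 laminin alpha chains tested, 1 fell in each comparison and 0 rose. The shares of all genes that fell were 3.93% for si-hnRNPK, 0.613% for si-PTBP1 and 1.01% for the LBCS-labelled library. The chain that fell was not the same throughout. LAMA5 (ENSG00000130702), the alpha chain of the laminins of most adult basement membranes, was at 53.1 CPM in control, 24.99 in si-hnRNPK, 56.6 in si-PTBP1 and 25.3 in the LBCS-labelled library. It fell to 0.470 times control (0.441 to 0.501) with si-hnRNPK and 0.475 times (0.448 to 0.504) in the LBCS-labelled library. The control and si-PTBP1 libraries are the high pair, and the difference between them was 0.09, or -0.04 after scaling. LAMA1, the alpha chain of the embryonic laminin-111, was at 23.5, 22.7, 11.1 and 12.2 CPM. It fell with si-PTBP1 to 0.472 times control (0.429 to 0.519), and in the LBCS-labelled library it was 0.519 times control, a difference of -0.89. For si-hnRNPK the difference of LAMA1 was -0.05, and 0.06 after scaling. The difference of LAMA5 with si-hnRNPK was -1.06, and -0.95 after scaling. LAMA1 shares 10.3% of its exon length with the antisense gene AP002409.1, and LAMA5 shares 1.71% with ADRM1 on the other strand.

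LAMC1 and the beta chains did not pass the threshold in any comparison as deposited. LAMC1 (ENSG00000135862, chr1:183023460-183145592 on GRCh38) was at 219 CPM in control, 419 in si-hnRNPK, 317 in si-PTBP1 and 264 in the LBCS-labelled library. Its ratio to control was 1.91 (1.87 to 1.95), 1.44 (1.41 to 1.48) and 1.20 (1.18 to 1.23). The difference for si-hnRNPK was 0.93, and 1.04 after scaling. LAMB2 was at 105, 141, 178 and 165 CPM, with differences of 0.42, 0.75 and 0.64. LAMB1 was at 68.5, 79.6, 74.4 and 68.9 CPM, with differences of 0.21, 0.12 and 0.01, and the middle value was -0.01 after scaling.

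LAMB3 was at 31.7 CPM in control, 43.8 in si-hnRNPK, 29.1 in si-PTBP1 and 16.9 in the LBCS-labelled library, where the difference was -0.87. LAMA3, the alpha chain that pairs with LAMB3, was at 1.11 to 2.89 CPM and did not pass the threshold. It is given as a partner of LAMB3, chosen after its values were seen. LAMA2, the alpha chain of muscle laminin, did not pass it either.

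**Figure D3:**
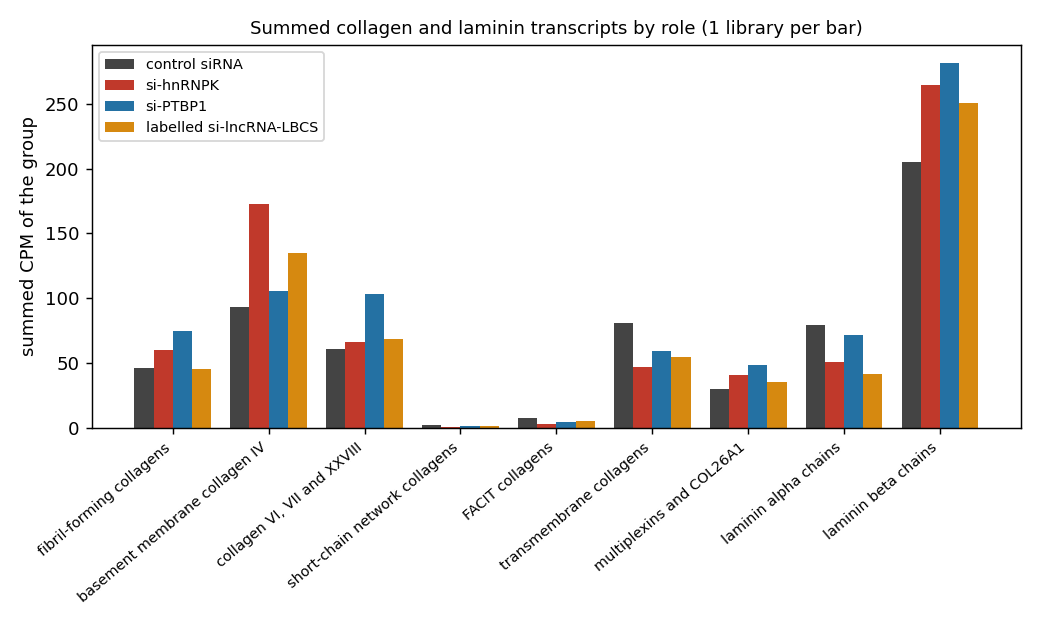
Summed CPM of the described genes in each role other than the laminin gamma chains, with 1 bar per library and the vertical axis from 0. The collagen IV bar is higher for si-hnRNPK (172) than for control (93.3), and the laminin alpha bar is lower for si-hnRNPK (50.6) and the LBCS-labelled library (41.4) than for control (79.0). Within that bar LAMA5 went from 53.1 CPM in control to 24.99 and 25.3 CPM, and LAMA1 from 23.5 to 22.7 and 12.2 CPM.

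The sums by role put these chains together. The laminin chains summed to 505 CPM in control, 735 in si-hnRNPK, 670.4 in si-PTBP1 and 556 in the LBCS-labelled library. The alpha chains went from 79.0 to 50.6 CPM between control and si-hnRNPK, while LAMC1 went from 219 to 419 CPM. The lower alpha sum lay in LAMA5, which went from 53.1 to 24.99 CPM. LAMA1 went from 23.5 to 22.7 CPM, and LAMA2 and LAMA3 were slightly higher. Collagens summed to 321 CPM in control, 389.6 in si-hnRNPK, 397 in si-PTBP1 and 344 in the LBCS-labelled library.

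A ratio of chains within a library does not depend on how the libraries were scaled. Its value per kb does depend on the exon lengths used, so a ratio near 1 does not show equal numbers of transcripts. The change of a ratio against control does not depend on those lengths. The pairs were chosen after the values had been seen and carry no test. LAMA1 with LAMA5, and LAMB1 with LAMB2, are alternative chains and not partners in a trimer. COL4A1 was 0.535 times COL4A2 per kb in control (0.503 to 0.569), 1.02 times in si-hnRNPK (0.978 to 1.07), 1.05 times in si-PTBP1 (0.983 to 1.11) and 0.824 times in the LBCS-labelled library (0.787 to 0.863). Relative to control the ratio was thus 1.91-fold (1.77 to 2.06), 1.96-fold (1.79 to 2.14) and 1.54-fold (1.43 to 1.66) higher. The si-hnRNPK and si-PTBP1 ratios were alike within counting error, although COL4A2 was above control in the former and below it in the latter. COL4A5 was 1.96, 2.87, 2.30 and 1.94 times COL4A6 per kb, and its ratio against control was 1.47 (1.19 to 1.80) for si-hnRNPK, with intervals that include 1 in the other 2 comparisons.

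COL5A1 was 4.60 times COL5A2 per kb in control, 2.21 times in si-hnRNPK, 2.60 times in si-PTBP1 and 3.87 times in the LBCS-labelled library. Relative to control these were 0.479 (0.386 to 0.593), 0.565 (0.456 to 0.696) and 0.840 (0.667 to 1.05). LAMA1 was 0.398 times LAMA5 per kb in control, 0.818 times in si-hnRNPK, 0.176 times in si-PTBP1 and 0.434 times in the LBCS-labelled library. The alpha chain ratio was therefore 2.06 times the control ratio (1.86 to 2.27) with si-hnRNPK and 0.443 times (0.398 to 0.494) with si-PTBP1. In the LBCS-labelled library both chains were lower and the ratio was 1.09 times that of control (0.985 to 1.21). LAMB1 was 0.548 times LAMB2 in control and 0.476, 0.352 and 0.353 times in the other libraries. LAMC1 to LAMB1, a gamma to a beta chain, was 1.64, 1.33 and 1.20 times the control ratio in the same order. LAMC1 to LAMB2 was 1.43, 0.854 and 0.769 times the control ratio. COL6A1 was 0.413 times COL6A2 in control and 0.621, 0.704 and 0.457 times in the other libraries.

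**Figure D4:**
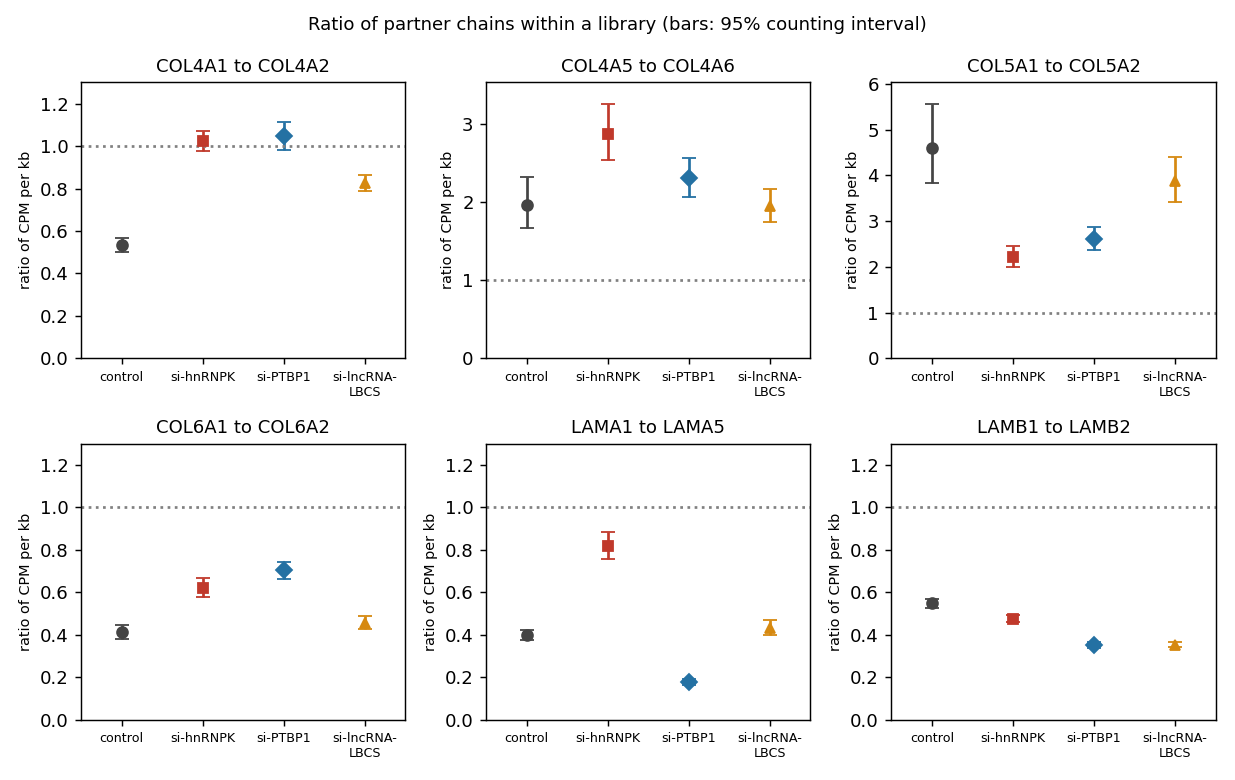
Ratio of chains per kb of exon in the 4 libraries on linear axes from 0, with 1 panel per pair, bars for the 95% counting interval and a dotted line at 1. The laminin panels compare alternative chains, not partners in a trimer. COL4A1 to COL4A2 goes from 0.535 in control to 1.02 and 1.05 in si-hnRNPK and si-PTBP1, and LAMA1 to LAMA5 goes from 0.398 to 0.818 and 0.176. The height of a ratio depends on the exon lengths used.

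Making a collagen or a laminin network needs enzymes, carriers, partners and receptors, and 68 such genes were listed by function. With si-hnRNPK 5 of the 56 tested rose and 3 fell, where 3.55% and 3.93% of all genes did. Their median difference was 0.23, and that of all genes -0.11. With si-PTBP1 3 of 57 rose and 0 fell, where 2.92% and 0.613% of all genes did. The medians were 0.11 and 0.12. In the LBCS-labelled library 0 of 55 rose and 1 fell, where 0.378% and 1.01% of all genes did. The medians there were 0.05 and -0.01. These shares of all genes also apply to the counts by function below.

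Among the partners in the basement membrane, 3 of 7 rose and 1 fell with si-hnRNPK, where 3.55% and 3.93% of all genes did. HSPG2, the heparan sulfate proteoglycan perlecan, went from 96.7 CPM in control to 233 CPM in si-hnRNPK. AGRN, the proteoglycan agrin, went from 143 to 337 CPM. FN1, the fibronectin of the cell surface, went from 57.2 CPM in control to 189 CPM in si-hnRNPK and 211 CPM in si-PTBP1. The gene that fell was NID1, a nidogen that links laminin to collagen IV, from 2.54 to 0.534 CPM. NTN4, a netrin that binds laminin gamma chains, rose with si-PTBP1 from 0.847 to 3.14 CPM. Being under 1 CPM in control, NTN4 entered each comparison only through the siRNA library compared. NID1 and NTN4 were under 5 CPM and are named after their values were seen. Against the geometric mean of the 3 other libraries, the si-hnRNPK differences were 1.36 for HSPG2, 1.06 for AGRN, 0.94 for FN1 and -0.80 for NID1. On that reference the si-PTBP1 differences were 1.15 for FN1 and 0.71 for NTN4. FN1 with si-hnRNPK, NID1 and NTN4 were thus under the threshold there.

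Of the chain-modifying enzymes, 2 of 18 rose with si-hnRNPK, where 3.55% of all genes rose. P3H2, a prolyl 3-hydroxylase, went from 25.6 to 93.6 CPM, a difference of 1.83. P4HA3, a prolyl 4-hydroxylase subunit, went from 3.39 to 8.10 CPM, a difference of 1.05. Against the geometric mean of the 3 other libraries, P3H2 differed by 2.14 and P4HA3 by 0.58, the latter under the threshold. PLOD2, a lysyl hydroxylase and the gene of the list with the most CPM in control, was at 376, 664, 275 and 332 CPM in the 4 libraries and did not pass the threshold. P4HB at 182 CPM and CRTAP at 156 CPM in control followed it. Of the 10 genes of procollagen export, SEC24D, a subunit of the COPII coat, fell with si-hnRNPK, where 3.93% of all genes fell. SEC24D went from 30.9 to 13.2 CPM. With the geometric mean as reference its difference was -0.74, under the threshold. The highest of that list in control were SEC23A (208 CPM), SPARC (152 CPM) and SAR1A (136 CPM), none of which passed the threshold.

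ADAMTS14, a protease that removes the amino-terminal propeptide of procollagens, rose with si-PTBP1 from 3.89 to 18.01 CPM. It was the only gene of 11 tested for processing and cross-linking to rise there, where 2.92% of all genes rose. TGM2, LOXL2 and PCOLCE2 led that list in control with 334, 195 and 35.4 CPM. Of the collagen receptors, ITGA2 fell with si-hnRNPK from 18.1 to 7.40 CPM. ITGA10, at 3.99 CPM in control and 1.25 CPM in the LBCS-labelled library, fell there and is named after its value was seen. Against the geometric mean of the 3 other libraries, ITGA2 differed by -0.65, under the threshold. On that reference ITGA10 differed by -1.21, and ADAMTS14 with si-PTBP1 by 1.70. DDR1 and DDR2, receptor kinases for collagen, were at 28.2 and 11.5 CPM in control. Of the 6 laminin receptors tested, 0 passed the threshold in any comparison as deposited, where at most 3.93% of all genes passed in a direction. BCAM, a laminin receptor of red blood cells and epithelia, was at 0.95 for si-hnRNPK and passed it after scaling (1.06), and is named after its value was seen. ITGB1 was at 2088 CPM in control and 2855, 3192 and 2900.4 CPM in the other libraries, and ITGA3 at 1335, 1701, 1919 and 1386 CPM. RPSA, at 2071 CPM in control, has many processed pseudogenes, so its count is uncertain.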

How the data were processed

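Total RNA of UM-UC-3 cells was sequenced as paired reads of 100 bases, 1 library per siRNA condition. The authors deposited 1 table per library with CPM per Ensembl gene, and the submitters' processing notes name hg19. The aligner, the counter and the use of strand are not given in the sources used here. The deposited CPM values of all genes with reads (100%) were whole multiples of 1 read within 0.001 reads, so reads were recovered and used for counting intervals. Zero counts had been replaced by a value below 1 read for 197 to 393 genes per table, and these were set to 0. There were 0 columns that could not be mapped to a sample.

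Symbols, exon lengths, 3′ UTRs and positions came from GENCODE 29 on GRCh38, matched by Ensembl ID (24024 to 24449 IDs per table), and promoters from RefSeq. Differences are of log2(CPM + 1) at a threshold of 1, over genes at 1 CPM or more in either library. Alternatives were median-of-ratios scaling over 12362 genes, a minimum of 5 CPM or none, a pseudocount of 0.1, the geometric mean of the 3 other libraries as reference, a mean of 1 CPM over the 4 libraries (chosen after seeing the data), a threshold of 1.5-fold, and a binomial test of the reads of the 2 libraries (adjusted value of at most 0.05), which compares libraries and not conditions. Intervals of single genes are exact Clopper-Pearson intervals at 95%, and those of the change of a chain ratio are exact conditional odds ratio intervals.

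Members and lists were chosen with earlier results of these data known. Named with values were COL4A1, LAMC1 and their trimer partners, members at 5 CPM or more in any library, and members that passed the threshold, 24 genes in all. Values of COL6A6, COL10A1, COL11A2 and LAMA3 were added after they were seen. Of the pathway lists, genes that passed the threshold at 5 CPM or more and the 3 highest in control per list were named. One item is not reported here. On simulated data for the same libraries, 200 genes changed 4-fold were all recovered (100%) with 0 false calls, which covers counting error alone. The changed genes were drawn only from genes well above 1 CPM in control. Recovery of smaller changes, or of changes in genes with few reads, was not tested. Computations used scipy 1.17.1, numpy 2.4.6, pandas 2.3.3 and matplotlib 3.10.9 in Python 3.11.15.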

Additional observations from a re-analysis of the deposited data

How the results depend on the processing

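No paired analysis was possible because each condition had 1 library and the labels give no replicate numbers, and no library could be left out for the same reason. For si-hnRNPK, the genes up numbered 5 with median-of-ratios scaling, 0 (and 1 down) against the geometric mean of the 3 other libraries and 7 at a 1.5-fold threshold, and the median was 0.42 with a filter of 5 CPM. For si-PTBP1, 11 were up and 4 down with a pseudocount of 0.1, 2 up and 1 down against the geometric mean, and 13 up and 4 down at 1.5-fold, and the median without a filter was 0.16. For the LBCS-labelled library, 1 was up with a pseudocount of 0.1, 0 were down and the median was -0.0879 against the geometric mean, and 8 were up and 6 down at 1.5-fold. A lower threshold, by its construction, calls more genes, and the cause of the other shifts was not tested. With the filter on the mean of the 4 libraries the counts of genes up and down stayed within 1.5 times of those reported. Requiring the binomial test as well left the counts at 3 up and 6 down, 7 and 2, and 0 and 2. It also left the counts over all genes unchanged, at 486 up and 537 down, 404 and 85, and 51 and 136. At this depth it could therefore not alter the calls and is no check of them. Over 68 differences of named genes, 3 changed sign and 5 changed their side of the threshold with median-of-ratios scaling, 0 and 3 with a pseudocount of 0.1, and 17 and 18 with the geometric mean as reference. With 1 library per condition, depth bounds the counting error and the spread between cultures is unknown.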
